A study of Drosophila melanogaster with 54 samples.

Results

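The Methuselah receptor family was measured in heads of Drosophila melanogaster, in control flies and in flies depleted of BEAF-32 that had been held at a cool or a warm temperature. Members were the 10 rows of the RNA count table named mth, mthl1, mthl2, mthl3, mthl4, mthl5, mthl8, mthl9, mthl10 and mthl15, out of 16719 genes. The study it comes from mapped messenger RNA ends in fly heads across temperatures, and its 12 libraries on BEAF-32, a chromatin insulator protein, asked whether that protein takes part in the transcriptional response to warmth. The remaining 42 of the series' 54 samples were not analysed here.

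Control flies carried the actin5C-gal4 driver alone, with the genotype label wild type and the strain label YW. Knockdown flies carried a UAS-RNAi transgene against BEAF-32 under the same driver, which is active throughout the body, so no effect can be placed in a cell type. A single RNAi line was used and the controls carried no RNAi transgene, so the knockdown and the genetic background of that line cannot be told apart. All flies were reared at 25 °C and newborn adults were then held for 3 days at 18 °C or 29 °C in cycles of 12 h light and 12 h dark. Each of the 4 groups had 3 libraries of sequenced RNA 3' ends from heads. The labels give neither sex nor time of day for these flies and name no separate cultures behind the libraries. Each p-value therefore measures spread between libraries, which may be technical.

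Methuselah receptors are G protein-coupled receptors of the secretin-like class (family B), with a large extracellular domain. The founding member, mth, was found in a mutant line with a longer life and better survival of starvation, heat and oxidative stress, and its described ligand is Stunted, a peptide that is also a subunit of mitochondrial ATP synthase. Of the relatives, mthl1 (Mist) receives Folded gastrulation when embryonic cells change shape, mthl10 binds growth-blocking peptides, cytokine-like hormones made largely by the fat body, and mthl5 acts in the shaping of the heart tube.

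Library totals ran from 2905211 to 7146191 counts, and 3 counts, the floor used for a gene with no read, corresponded to 0.42 to 1.03 CPM, the unit of levels here (counts scaled to a common library size). BEAF-32 itself fell by 3.70 at 18 °C and by 4.00 at 29 °C on the log2 scale (edgeR adjusted p = 5.43e-10 and 1.25e-10). Head tissue was present by its markers: the 5 neuronal genes summed to 532 to 685 CPM and the 5 photoreceptor genes to 15225 to 27484 CPM, while the 5 ovary genes, osk at 0 in all libraries among them, summed to at most 0.438 CPM. Some libraries stood apart. The dosage compensation RNA roX1, made in males, was at 54.2 CPM in replicate 2 of the cool controls, against 191 and 143 CPM in its group, and at 113 CPM in replicate 1 of the warm knockdown flies, against 257 and 205 CPM. The cool knockdown libraries were all at 102 to 138 CPM, near that 113 CPM, and none of them is counted below as low in roX1. The part of sex in the differences between groups was not tested. The antennal gene Obp83a was at 8.16 CPM in replicate 1 of the warm controls and at 69 and 44 CPM in replicates 2 and 3 of the cool knockdown flies, and at no more than 1.61 CPM in the other 9 libraries. Some calls were lost or gained without the 2 libraries low in roX1 or the 3 high in Obp83a. This is described beside each single-contrast difference given below, for members and for listed genes other than markers.

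Total counts of the 10 members ran from 28 for mthl15 to 1077 for mthl8, and all of them gave at least 1 read in every group. The filter on low counts passed 8 members, since mthl4 and mthl15 were too sparse. Of these 8, mthl3 passed it only through 3 libraries kept at 18 °C, and mthl9 only through the 3 cool control libraries and 1 warm one, so a difference in those 2 genes was partly built into the selection. Levels below are CPM scaled by TMM, and because no gene lengths were used they are compared between groups and not between genes.

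The clearest result in the family was mthl8, whose RNA rose in the warmth and fell in the knockdown, each under both settings of the other factor. Warmth changed 2 of the 8 tested members in control flies, raising mthl8 and lowering mthl3, while 38.0% of the 9056 genes tested were called. The fall of mthl3 was partly built into the filter, which that gene passed only through libraries kept at 18 °C. In knockdown flies warmth changed 1 of 8, mthl8, against 35.5% of all genes. Depletion of BEAF-32 lowered mthl8 at 18 °C and lowered mthl8 and mth at 29 °C, which is 1 and 2 of 8 members, where 14.1% and 14.7% of all genes were called and 7.50% and 7.56% were lowered. No member rose in the knockdown at either temperature, by edgeR, by DESeq2 or at an unadjusted p under 0.05. With 8 members, nothing in these counts sets the family apart from that background. As a description, the median log2 fold change of the 8 members was 0.07 and -0.24 for warmth in control and knockdown flies, and -0.50 and -0.27 for the knockdown at 18 °C and 29 °C, against medians between -0.01 and 0.01 over all genes tested. The 8 include mthl3 and mthl9, which passed the filter mainly through cool control libraries. These medians were thus partly built into the selection, and medians without those 2 genes were not taken.

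**Figure D1:**
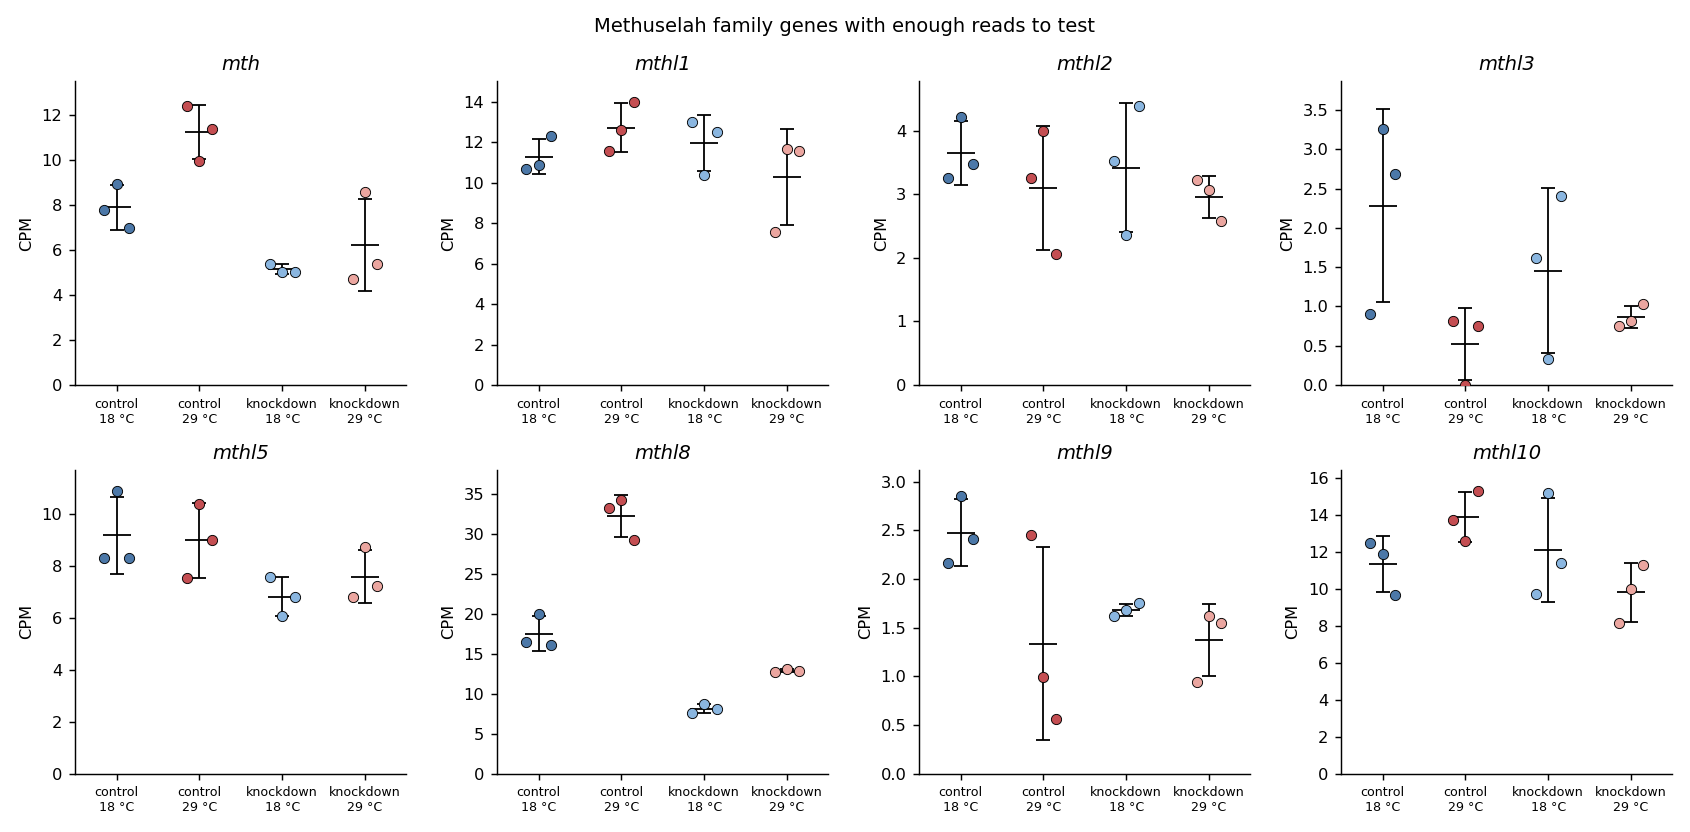
Levels of the tested family members in each of the 12 libraries, in CPM scaled by TMM, with the 4 groups along the horizontal axis and group means as lines. The mthl8 libraries fall into 4 separate bands, from 7.57 to 8.76 CPM in cool knockdown flies up to 29.2 to 34.2 CPM in warm controls. In every other member shown, some of the groups overlap and others may not.

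The gene mthl8 lies on chromosome arm 3L, and no ligand is given for it here. In controls at 18 °C its level was 16.5, 20.0 and 16.1 CPM, and at 29 °C it was 33.2, 34.2 and 29.2 CPM. In knockdown flies it was 7.57, 8.76 and 8.10 CPM at 18 °C, and 12.7, 13.1 and 12.9 CPM at 29 °C. From lowest to highest the groups ran cool knockdown, warm knockdown, cool control, warm control, and no library of any group overlapped with the next group. The order of cool controls over warm knockdown flies, 17.5 ± 2.13 against 12.9 ± 0.216 CPM (SD, n = 3), is a description, since that pair differs in both factors and was not tested.

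Warmth raised mthl8 1.81-fold in controls, a log2 fold change of 0.86 (SE 0.119, 95% interval 0.61 to 1.10, edgeR adjusted p = 6.93e-06). In knockdown flies warmth raised it 1.59-fold, or 0.67 on the log2 scale (SE 0.165, edgeR adjusted p = 0.00322). The difference between these effects was -0.19 (SE 0.207, 95% interval -0.62 to 0.24, edgeR adjusted p = 0.792). The temperature response of mthl8 was therefore not shown to differ between genotypes, and the interval allows a response in knockdown flies up to 0.62 weaker or 0.24 stronger on the log2 scale.

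Depletion of BEAF-32 left mthl8 2.18-fold lower at 18 °C, with a log2 fold change of -1.13 (SE 0.156, edgeR adjusted p = 2.17e-05). At 29 °C it was 2.49-fold lower, with a log2 fold change of -1.32 (SE 0.126, edgeR adjusted p = 1.85e-07). Over both temperatures the knockdown difference was -1.22 and over both genotypes the temperature difference was 0.76 (edgeR adjusted p = 8.73e-09 and 2.21e-06). These pooled tests called 23.2% and 49.7% of all genes. The calls for temperature and for knockdown held in all 20 alternative analyses of each of the 4 single contrasts, although in knockdown flies the adjusted p of the temperature difference reached 0.0462 in 1 of them. In reads, the 3 warm control libraries held 490 of mthl8 and the 3 warm knockdown libraries 198.

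Cell type markers moved with temperature beside mthl8. In controls warmth raised 4 of 5 photoreceptor markers and lowered 1, lowered 4 of 5 muscle markers and raised 1 (Act88F), and lowered 3 of 5 fat body markers and raised 1. The rise of Act88F lay in 1 library, replicate 2 of the warm controls, at 211 CPM. The other warm control libraries, at 1.84 and 3.56 CPM, were below the cool controls at 7.06 to 7.96 CPM. Warmth also lowered 3 of 5 glial markers and raised 3 of 5 haemocyte and 2 of 5 neuronal markers. Of all genes tested, 38.0% were called for warmth in controls. The 5 photoreceptor markers, norpA among them, summed to 15225 to 15658 CPM in cool controls and 26779 to 27484 CPM in warm controls, with 16190 to 17405 and 24681 to 26191 CPM in cool and warm knockdown flies. The 5 glial markers went from 617 to 674 CPM in cool controls to 362 to 441 CPM in warm ones, and the 5 muscle markers from 2381 to 3379 CPM to 1419 to 1887 CPM. In bulk heads, fewer cells of a type and less RNA per cell cannot be told apart, and the part of these markers in the temperature differences of mthl8 and of the genes described below was not tested. The photoreceptor sum is mostly the opsin gene ninaE, and single markers differed between genotypes: at 29 °C the knockdown lowered the channel gene trpl by 0.84, from a mean of 1452 to 813 CPM, and raised trp by 0.29 (edgeR adjusted p = 4.29e-08 and 0.0185). At 18 °C trpl was lowered by 0.36 (edgeR adjusted p = 0.0016). The part of these markers in the knockdown differences was not tested either.

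**Figure D2:**
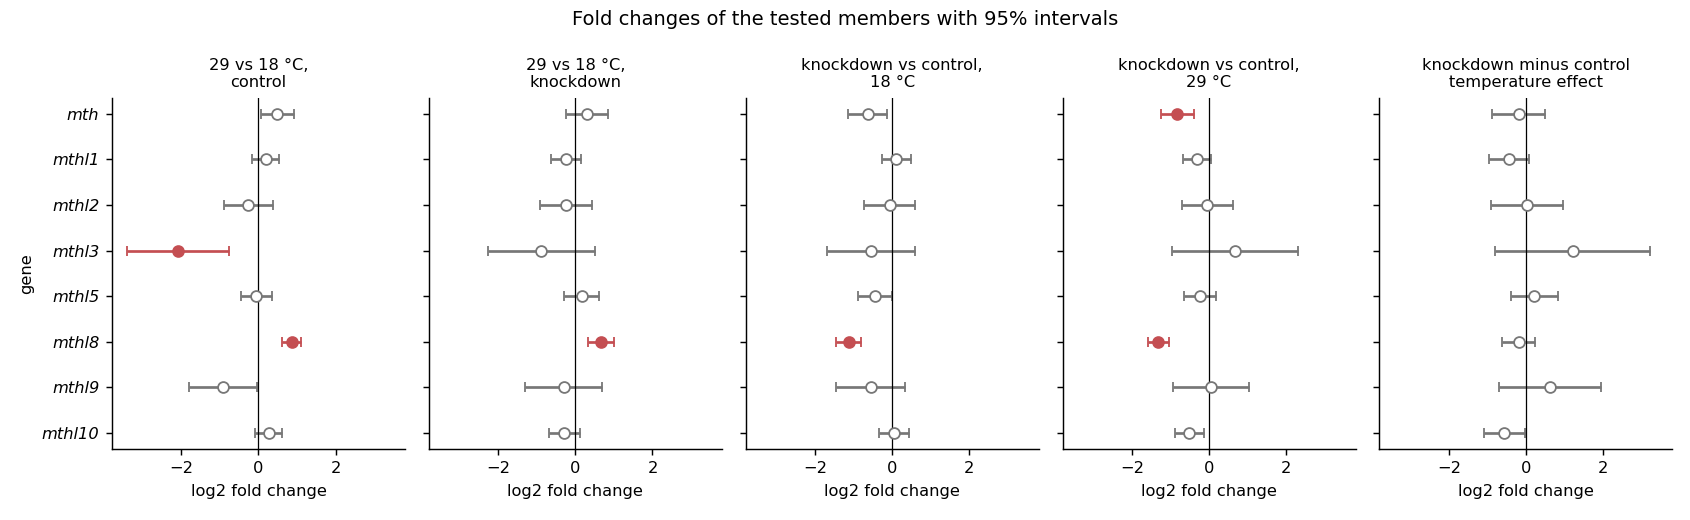
Log2 fold changes of the 8 tested members with 95% intervals in 5 panels: warmth in control and in knockdown flies, knockdown at 18 °C and at 29 °C, and the difference between the 2 temperature effects. Red points passed the threshold; mthl8 is red in the first 4 panels, from 0.86 to -1.32, mth in the knockdown at 29 °C at -0.82, mthl3 for warmth in controls at -2.09, and none in the last panel.

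The founding receptor gene mth, known for its part in lifespan and stress resistance, was lower in the knockdown. Its levels were 7.78, 8.96 and 6.97 CPM in cool controls and 12.4, 9.99 and 11.4 CPM in warm controls. Cool knockdown flies had 5.41, 5.05 and 5.03 CPM, and warm knockdown flies 4.73, 8.58 and 5.41 CPM. All control libraries at a given temperature lay above all knockdown libraries at that temperature, while cool and warm knockdown libraries overlapped.

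At 29 °C mth was 1.76-fold lower in the knockdown, with a log2 fold change of -0.82 (SE 0.211, 95% interval -1.26 to -0.38, edgeR adjusted p = 0.0111). This call was lost without replicate 1 of the warm knockdown flies, the lowest library of its group, at -0.63 with an adjusted p of 0.0775. It was also lost without the 2 libraries low in roX1, at -0.64 (edgeR adjusted p = 0.0757), and without the 3 libraries high in Obp83a, at -0.74 (edgeR adjusted p = 0.0601). At 18 °C the difference was -0.64 (SE 0.245, edgeR adjusted p = 0.0915) and did not pass. Over both temperatures, where 23.2% of all genes were called, mth fell by 0.73 in the knockdown (SE 0.161, edgeR adjusted p = 0.00214), a call lost only without the 3 libraries high in Obp83a, at -0.66 (edgeR adjusted p = 0.059).

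For temperature, the log2 difference of mth was 0.49 in controls (SE 0.201, edgeR adjusted p = 0.0619) and 0.31 in knockdown flies (SE 0.256, edgeR adjusted p = 0.382), so neither passed. In controls it did pass in 4 of 20 alternatives, with adjusted p-values of 0.0376 to 0.049, among them without the 2 libraries low in roX1, at 0.60 (edgeR adjusted p = 0.0468). Warm controls lay above cool controls without overlap, as did 24.2% of all genes tested. Over both genotypes the difference of 0.40 just passed (edgeR adjusted p = 0.0488), and the call was lost in 12 of 19 alternative analyses, with adjusted p-values up to 0.277; DESeq2 was among them at 0.0959. The 2 temperature differences of mth themselves differed by -0.18 (SE 0.329, 95% interval -0.87 to 0.50).

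The receptors with known ligands other than mth were not called in any comparison. For mthl1, the Folded gastrulation receptor on the X chromosome, libraries ran from 10.7 to 12.3 CPM in cool controls, from 11.6 to 14.0 CPM in warm controls, from 10.4 to 13 CPM in cool knockdown flies and from 7.57 to 11.7 CPM in warm knockdown flies. These groups overlapped in every one of the 4 contrasts. The log2 fold changes of mthl1 lay between -0.32 and 0.19, and the 95% interval of the widest, the knockdown at 29 °C, was -0.68 to 0.04 (edgeR adjusted p = 0.251).

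The growth-blocking peptide receptor mthl10 was the member nearest to the threshold without passing it. Levels of mthl10 were 12.5, 11.9 and 9.65 CPM in cool controls and 13.7, 12.6 and 15.3 CPM in warm controls. In knockdown flies they were 9.73, 15.2 and 11.4 CPM at 18 °C and 8.14, 10.0 and 11.3 CPM at 29 °C. At 29 °C every knockdown library lay below every control library, and the log2 fold change was -0.51 (SE 0.177, 95% interval -0.88 to -0.14, edgeR adjusted p = 0.0573). Small changes in the analysis moved this value across the threshold, with adjusted p-values from 0.0359 to 0.0486 in 5 alternatives. At 18 °C the difference was 0.05, with an interval of -0.34 to 0.43. Among the members, mthl10 alone had an unadjusted p under 0.05 for the interaction, at -0.56 (SE 0.256, edgeR adjusted p = 0.328), where 2.31% of all genes were called. No member was called for the interaction by edgeR or by DESeq2.

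For mthl5, the heart tube gene on 3R, cool controls had 8.32, 10.9 and 8.31 CPM and cool knockdown flies 7.57, 6.06 and 6.79 CPM. The cool knockdown libraries thus lay below the cool controls, at a log2 fold change of -0.45 (SE 0.211, edgeR adjusted p = 0.182). Warm controls had 7.55, 10.4 and 8.98 CPM and warm knockdown flies 6.81, 8.74 and 7.22 CPM, which overlap. Over both temperatures the difference of mthl5 was -0.34 (95% interval -0.64 to -0.04, edgeR adjusted p = 0.101). For mth, mthl5 and mthl8 every cool knockdown library lay below every cool control library, as for 14.6% of all genes; the same held for mthl9, which had passed the filter through its control libraries. At 29 °C the same held for mth, mthl8 and mthl10, against 15.6% of all genes.

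The other members were read from few counts. For mthl3, on 2R, cool controls gave 5, 24 and 10 reads and warm controls 4, 0 and 4. Cool knockdown flies gave 6, 1 and 11 reads and warm knockdown flies 4, 5 and 4. The control groups did not overlap once scaled to depth, at 2.28 ± 1.23 against 0.522 ± 0.453 CPM (SD, n = 3), but the latter mean lies within the range of the floors of 3 counts in a library.

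In controls mthl3 fell by 2.09 on the log2 scale in the warmth (SE 0.637, 95% interval -3.42 to -0.77, edgeR adjusted p = 0.0128). Single libraries decided this call: it was -1.61 (edgeR adjusted p = 0.113) without replicate 2 of the cool controls, a library low in roX1, -1.61 (edgeR adjusted p = 0.121) without both such libraries, and -1.54 (edgeR adjusted p = 0.0658) without replicate 2 of the warm controls, which had no read. In knockdown flies the difference was -0.88 (SE 0.667, edgeR adjusted p = 0.33). Over both genotypes it was -1.49 (edgeR adjusted p = 0.0118), but -1.19 (edgeR adjusted p = 0.0877) without replicate 3 of the cool knockdown flies and -1.20 (edgeR adjusted p = 0.0766) without the 2 libraries low in roX1. The filter, which mthl3 passed only through cool libraries, favoured a fall with warmth in each of these tests.

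For mthl9, on 3L, the summed reads were 42 in cool controls, 20 in warm controls, 19 in cool knockdown flies and 21 in warm knockdown flies. The warm controls spread from 0.562 to 2.45 CPM and overlapped with the cool controls at 2.17 to 2.85 CPM. The temperature difference in controls was -0.92 (SE 0.416, edgeR adjusted p = 0.0874), and it passed at -1.66 (edgeR adjusted p = 0.0108) without replicate 1 of the warm controls, a library high in Obp83a, and at -1.66 (edgeR adjusted p = 0.021) without all 3 such libraries. For mthl2, also on 3L, groups overlapped in all 4 contrasts, with 40 to 62 summed reads a group and log2 fold changes between -0.26 and -0.05. The widest interval of mthl2, for warmth in knockdown flies, ran from -0.92 to 0.44, so differences within that range remain possible.

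The 2 members that were not tested stayed near the floor. Reads of mthl4 were 5, 9 and 6 in cool controls, 2, 5 and 1 in warm controls, 1, 6 and 6 in cool knockdown flies and 5, 3 and 2 in warm knockdown flies. The summed reads of mthl4 came to 1.20 CPM in cool controls (95% Poisson interval 0.735 to 1.86) and 0.525 CPM in warm controls (0.226 to 1.03), intervals that overlap and cover counting error only. Reads of mthl15 were 1, 3 and 1 in cool controls, 1, 4 and 1 in warm controls, 1, 0 and 2 in cool knockdown flies and 4, 9 and 1 in warm knockdown flies. The highest mthl15 value was therefore in warm knockdown flies, where 1 library held 9 of the 14 reads.

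**Figure D3:**
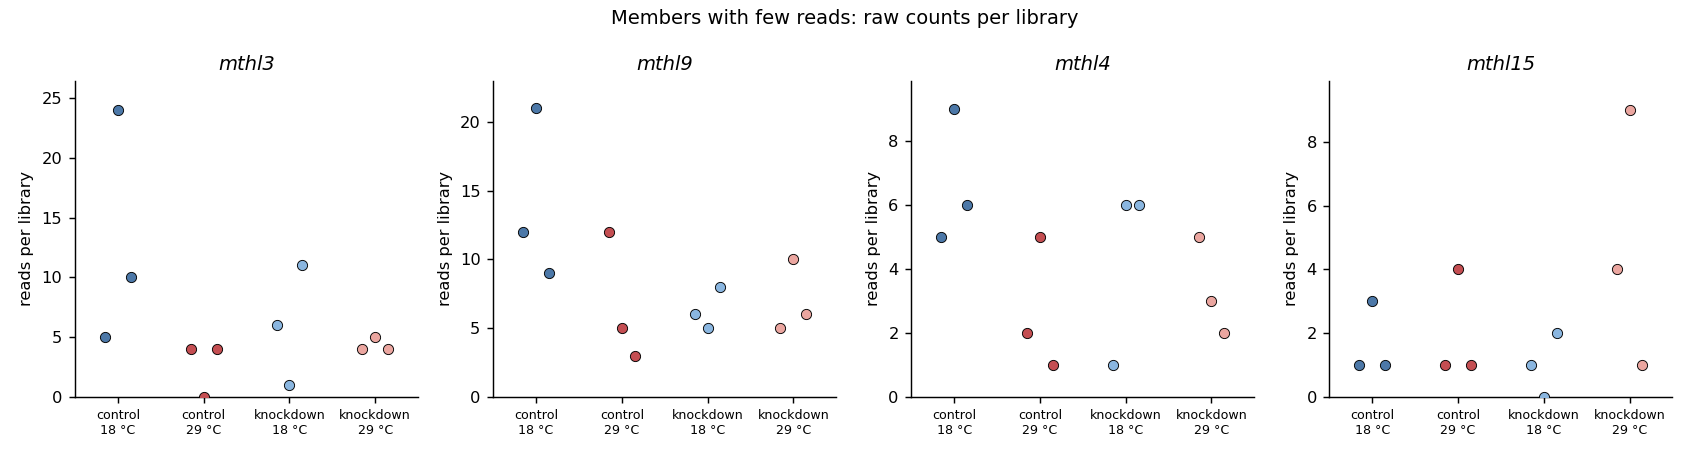
Raw read counts of the 4 sparsest members, mthl3, mthl9, mthl4 and mthl15, in each of the 12 libraries by group. Values of mthl3 range from 0 to 24 reads and those of mthl15 from 0 to 9, and groups of mthl4 and mthl15 overlap.

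Of the 6 other family genes in the count table, none passed the filter. No read was found for mthl6 or mthl7, and mthl11, mthl12 and mthl13 had 11, 1 and 3 reads over the 12 libraries. The sixth, mthl14, had 47 reads, of which 27 came from cool controls, 8 from warm controls, 7 from cool knockdown flies and 5 from warm knockdown flies. In cool controls that is 1.62 CPM (95% Poisson interval 1.07 to 2.36), above the interval of 0.226 to 1.03 in warm controls, with replicates at 2.89, 0.679 and 1.61 CPM. Those replicates overlap with the warm controls, whose highest library was at 0.936 CPM.

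Family genes sit together in places. In the order of a RefSeq gene table of the Release 6 assembly, mthl9, mthl10 and mth are next to each other on 3L, and mthl4 and mthl3 on 2R. Among these 3 neighbours on 3L, the knockdown log2 fold changes at 29 °C were 0.06 for mthl9, -0.51 for mthl10 and -0.82 for mth, of which mth alone passed the threshold. How reads that match similar copies were counted is not stated in the sources used here, and values of adjoining relatives are uncertain to that extent. The sparsest members, mthl3, mthl4 and mthl15, were not checked for counts shared with another gene. No other member's counts matched another gene's within 5% or 2 counts in every library.

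Around the members, 43 genes within 5 places on either side were tested. Of these, 2 neighbours of mthl1 had the same total of 3469 reads and the same fold changes, and are counted separately. At 18 °C the knockdown raised 1 and lowered 2 of the 43, against 14.1% of all genes called. At 29 °C it raised 3 and lowered 1, against 14.7%. Warmth raised 6 and lowered 6 in controls, against 38.0% of all genes called. In that table mthl8 came first among the counted genes of 3L, so it had neighbours on 1 side only. Its only tested neighbour, CG43149, was chosen after its values were seen. It had 4, 3 and 0 reads in cool controls and 36, 25 and 25 in cool knockdown flies. That is a log2 fold change of 4.13 (edgeR adjusted p = 1.19e-06), opposite in sign to mthl8. Only the cool knockdown libraries took CG43149 past the filter on low counts, so this difference was partly built into the selection. At 29 °C CG43149 had 1, 1 and 3 reads in controls and 6, 7 and 3 in knockdown flies, and its difference of 1.59 did not pass (edgeR adjusted p = 0.135).

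Among all tested genes with a mean of at least 5 CPM, the profile over the 12 libraries most like that of mthl8 was that of Osi2, with a Pearson correlation of log2 CPM of 0.971, followed by CG2121 with 0.970. Osi2, a gene of the Osiris family, stood at 5.69 ± 1.10 CPM in cool controls, 20.4 ± 2.08 in warm controls, 0.821 ± 0.475 in cool and 3.09 ± 0.257 in warm knockdown flies (SD, n = 3). Its cool knockdown libraries held 5, 2 and 2 reads, and their mean lies within the range of the floors of 3 counts in a library. For CG2121 the means were 24.6 ± 0.53, 50.5 ± 2.24, 12.5 ± 1.22 and 24.1 ± 1.57 CPM in the same order. Both genes thus followed the same group order as mthl8, except that warm knockdown flies and cool controls overlapped for CG2121.

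The profiles most like that of mth were those of CG7997, with a correlation of 0.938, and unc-45, which encodes a myosin chaperone, with 0.924. CG7997 averaged 68.6 ± 6.24 CPM in cool controls, 96.7 ± 4.6 in warm controls, 48.4 ± 3.56 in cool and 52.0 ± 6.96 in warm knockdown flies (SD, n = 3). For the other 6 tested members the highest correlation with another gene ran from 0.822 to 0.882. Within the family the highest correlation was between mth and mthl8, at 0.895, and it was 0.242 once group means were removed, so it lay between the groups more than within them. All these correlations are descriptions over 12 libraries that share 4 group means.

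**Figure D4:**
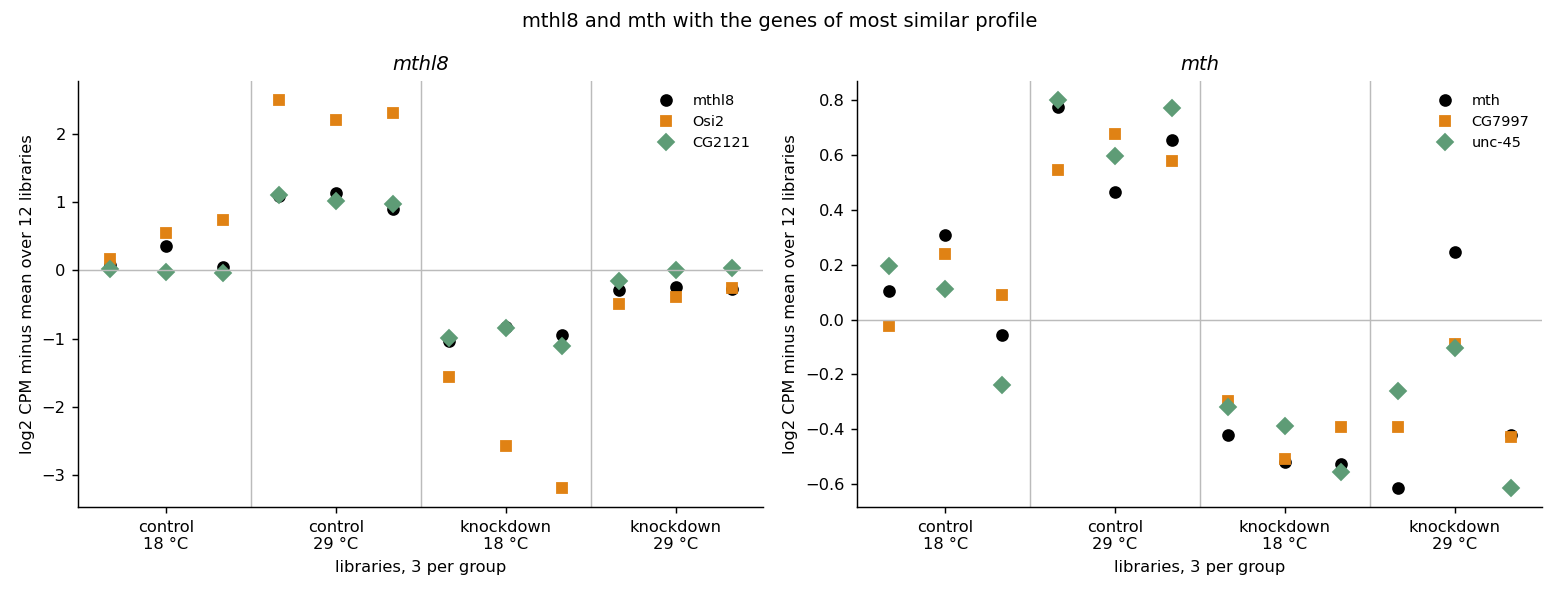
Levels per library of mthl8 beside Osi2 and CG2121, and of mth beside CG7997 and unc-45, by group. In each of the first 3 genes warm controls are highest and cool knockdown libraries lowest.

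Ligands of these receptors were measured in the same libraries. Of 7 genes listed as ligands or as a second receptor of a shared ligand, 6 were tested. Warmth raised 1 and lowered 3 in controls and lowered 3 in knockdown flies, where 38.0% and 35.5% of all genes were called. The knockdown lowered 2 at 18 °C and raised 1 and lowered 3 at 29 °C, where 14.1% and 14.7% were called. The median log2 fold changes were -0.18, -0.08, -0.16 and -0.23. The sex peptide gene SP, proposed as a mth ligand, was at 0 reads in 11 libraries and at 13 reads in replicate 3 of the warm knockdown flies, where the accessory gland gene Acp36DE also had 13 reads.

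The growth-blocking peptide gene Gbp1 (Gbp in the count table) was the ligand that moved in every contrast. Its level was 103, 118 and 109.6 CPM in cool controls, 84.2, 78.1 and 80.9 in warm controls, 72.7, 75.8 and 58.7 in cool knockdown flies and 54.3, 53.2 and 48.7 in warm knockdown flies. The control groups lay above the knockdown groups and cool above warm, without overlap in any of the 4 contrasts. Gbp1 fell by 0.45 with warmth in controls and by 0.39 in knockdown flies (edgeR adjusted p = 4.63e-04 and 0.0035). In the knockdown it fell by 0.69 at 18 °C and by 0.63 at 29 °C (edgeR adjusted p = 1.81e-05 and 6.83e-05). These 4 calls held in all 20 alternatives.

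Of the other peptides bound by mthl10, Gbp2 (CG11395) fell by 0.25 in the knockdown at 18 °C (edgeR adjusted p = 0.0276) and by 0.43 at 29 °C (edgeR adjusted p = 4.39e-04); the first call held in 13 of 20 alternatives and was lost without the libraries low in roX1 and without those high in Obp83a (edgeR adjusted p = 0.0862 and 0.534), while the second held in all. Gbp3 (CG17244) averaged 123 ± 8.06 CPM in cool and 173 ± 13 CPM in warm controls (SD, n = 3), a rise of 0.49 on the log2 scale (edgeR adjusted p = 8.21e-05). It fell by 0.26 in the knockdown at 29 °C (edgeR adjusted p = 0.0413), a call that held in 13 of 20 alternatives and was lost without the libraries high in Obp83a (edgeR adjusted p = 0.186). Beside these fat body peptides, the 5 fat body markers summed to 24645 to 48212 CPM in cool controls, 43164 to 48396 in warm controls, 47308 to 70246 in cool knockdown flies and 40321 to 61830 in warm knockdown flies. These sums are mostly the yolk protein genes Yp1 and Yp2, and the other markers did not follow them: the storage protein gene Lsp2 averaged 532, 43.8, 298 and 141 CPM in the same order and FASN1, for fatty acid synthesis, 1096, 730.2, 991 and 690.2 CPM. The remaining marker, apolpp, averaged 3042, 2966, 2570 and 2491 CPM, with lower means in the knockdown at both temperatures. Warmth lowered 3 of the 5 in each genotype, Lsp2, FASN1 and Yp2. Of all genes, 38.0% and 35.5% were called for warmth in control and knockdown flies. The knockdown raised Yp1 and Yp2 at 18 °C. At 29 °C the knockdown raised 1 and lowered 1 of the 5. For the knockdown 14.1% and 14.7% of all genes were called at 18 °C and 29 °C. The part of these markers in the results on the peptides was not tested.

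The mth ligand gene sun had 703, 624 and 769.6 CPM in cool controls and 586, 562 and 547 in warm controls. In knockdown flies it had 718, 693 and 588 CPM at 18 °C and 751, 705 and 724 at 29 °C. Warm controls were the lowest group for sun. It fell by 0.31 with warmth in controls (edgeR adjusted p = 0.00949; 0.0677 without replicate 3 of the cool controls) and was 0.36 higher in the knockdown at 29 °C (edgeR adjusted p = 0.00771), a call held in all 20 alternatives. The difference between its temperature effects, 0.43, did not pass (edgeR adjusted p = 0.0783), though it did with DESeq2 (DESeq2 adjusted p = 0.022). At 29 °C the receptor mth and its ligand sun therefore changed in opposite directions in the knockdown. That mth call, however, was lost in 3 of 20 alternatives. The mthl1 ligand gene fog fell by 0.38 with warmth in controls and by 0.31 in knockdown flies (edgeR adjusted p = 0.0109 and 0.041), and it was not called for the knockdown at either temperature. The first fog call held in 19 of 20 alternatives (edgeR adjusted p = 0.0853 without replicate 1 of the cool controls). The second held in 12 and was lost with DESeq2 and without the libraries low in roX1 (adjusted p = 0.129 and 0.123). Its other receptor gene, smog, was not called in any comparison.

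Downstream of the receptors, 21 of 22 listed genes of G proteins, their effectors and receptor desensitisation were tested. Warmth raised 4 and lowered 3 in controls and raised 5 and lowered 2 in knockdown flies, where 38.0% and 35.5% of all genes were called. The knockdown raised 3 and lowered 0 at 18 °C, and raised 3 and lowered 1 at 29 °C, where 14.1% and 14.7% were called. The median log2 fold changes were -0.02, -0.03, 0.08 and 0.06, near those of all genes. The changes in warmth with the widest margin were in the genes of the eye's phototransduction cascade: Galphaq, its G protein alpha subunit, rose by 0.88 in controls and by 0.96 in knockdown flies (edgeR adjusted p = 3.61e-08 and 1.51e-08), and norpA, its phospholipase C, by 1.15 and 1.23 (edgeR adjusted p = 5.28e-10 and 3.10e-10). Neither was called in the knockdown at 18 °C or 29 °C, though norpA at 18 °C passed at -0.33 without the libraries low in roX1 (edgeR adjusted p = 0.00964).

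The same cascade's beta subunit, Gbeta76C, went the other way. It averaged 338 ± 22.6 CPM in cool controls, 229 ± 18.1 in warm controls, 422 ± 9.21 in cool and 391 ± 10.5 in warm knockdown flies (SD, n = 3). Warmth lowered Gbeta76C by 0.56 on the log2 scale in controls (edgeR adjusted p = 8.70e-06), while in knockdown flies the difference was -0.11 (edgeR adjusted p = 0.31). The knockdown raised it by 0.32 at 18 °C and by 0.77 at 29 °C (edgeR adjusted p = 0.00764 and 5.52e-07). The call at 18 °C was lost without the libraries low in roX1 and without those high in Obp83a, at 0.25 and 0.36 (edgeR adjusted p = 0.0702 and 0.0572). The matching gamma subunit gene Ggamma30A was raised by 0.28 and 0.40 in the knockdown at 18 °C and 29 °C (edgeR adjusted p = 0.0168 and 0.00109). Its call at 18 °C held in 14 of 20 alternatives and was lost without either set of libraries (edgeR adjusted p = 0.119 and 0.134). Plc21C, another phospholipase C, fell by 0.55 in the knockdown at 29 °C (edgeR adjusted p = 4.31e-04).

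Of genes that shut receptor signalling off, Gprk1, a receptor kinase, rose with warmth by 0.33 in controls and by 0.46 in knockdown flies (edgeR adjusted p = 0.0133 and 0.0015); the first call held in 17 of 20 alternatives and the second in all. The arrestin gene krz rose by 0.60 in the knockdown at 18 °C (edgeR adjusted p = 0.00128) and fell by 0.62 with warmth in knockdown flies (edgeR adjusted p = 4.11e-04). Both krz calls were lost without the 3 libraries high in Obp83a, with adjusted p-values of 0.338 and 0.172. The G protein regulator gene loco fell with warmth by 0.35 in controls and by 0.46 in knockdown flies (edgeR adjusted p = 0.0294 and 0.00784). The first loco call held in 14 of 20 alternatives and was lost with DESeq2 and without the libraries low in roX1 (adjusted p = 0.0695 and 0.124), and the second was lost without the libraries high in Obp83a (edgeR adjusted p = 0.124) and without replicate 3 of the cool knockdown flies, which is 1 of those libraries.

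As for other receptors of the class, all 7 listed family B receptor genes outside the Methuselah family were tested, and 0 were called in the knockdown at either temperature. Of all genes tested, 14.1% and 14.7% were called for the knockdown at 18 °C and 29 °C. For warmth 38.0% and 35.5% were called in control and knockdown flies. With warmth, the diuretic hormone 44 receptor genes moved apart in controls: Dh44-R1 rose by 0.80 (edgeR adjusted p = 0.0231, in 15 of 20 alternatives; 0.136 without the libraries low in roX1) and Dh44-R2 fell by 0.75 (edgeR adjusted p = 0.00907, in all 20). In knockdown flies the receptor of the circadian peptide PDF, Pdfr, fell by 0.40 with warmth (edgeR adjusted p = 0.0203, in 14 of 20 alternatives). Without the libraries high in Obp83a that Pdfr difference was -0.12 (edgeR adjusted p = 0.678), and without those low in roX1 it was -0.32 (edgeR adjusted p = 0.103). Of the 3 brain insulin-like peptide genes, hormones through which lifespan is known to be tuned, Ilp5 alone was called: it fell with warmth by 0.96 in controls and by 0.73 in knockdown flies (edgeR adjusted p = 1.37e-06 and 9.86e-05).

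**Figure D5:**
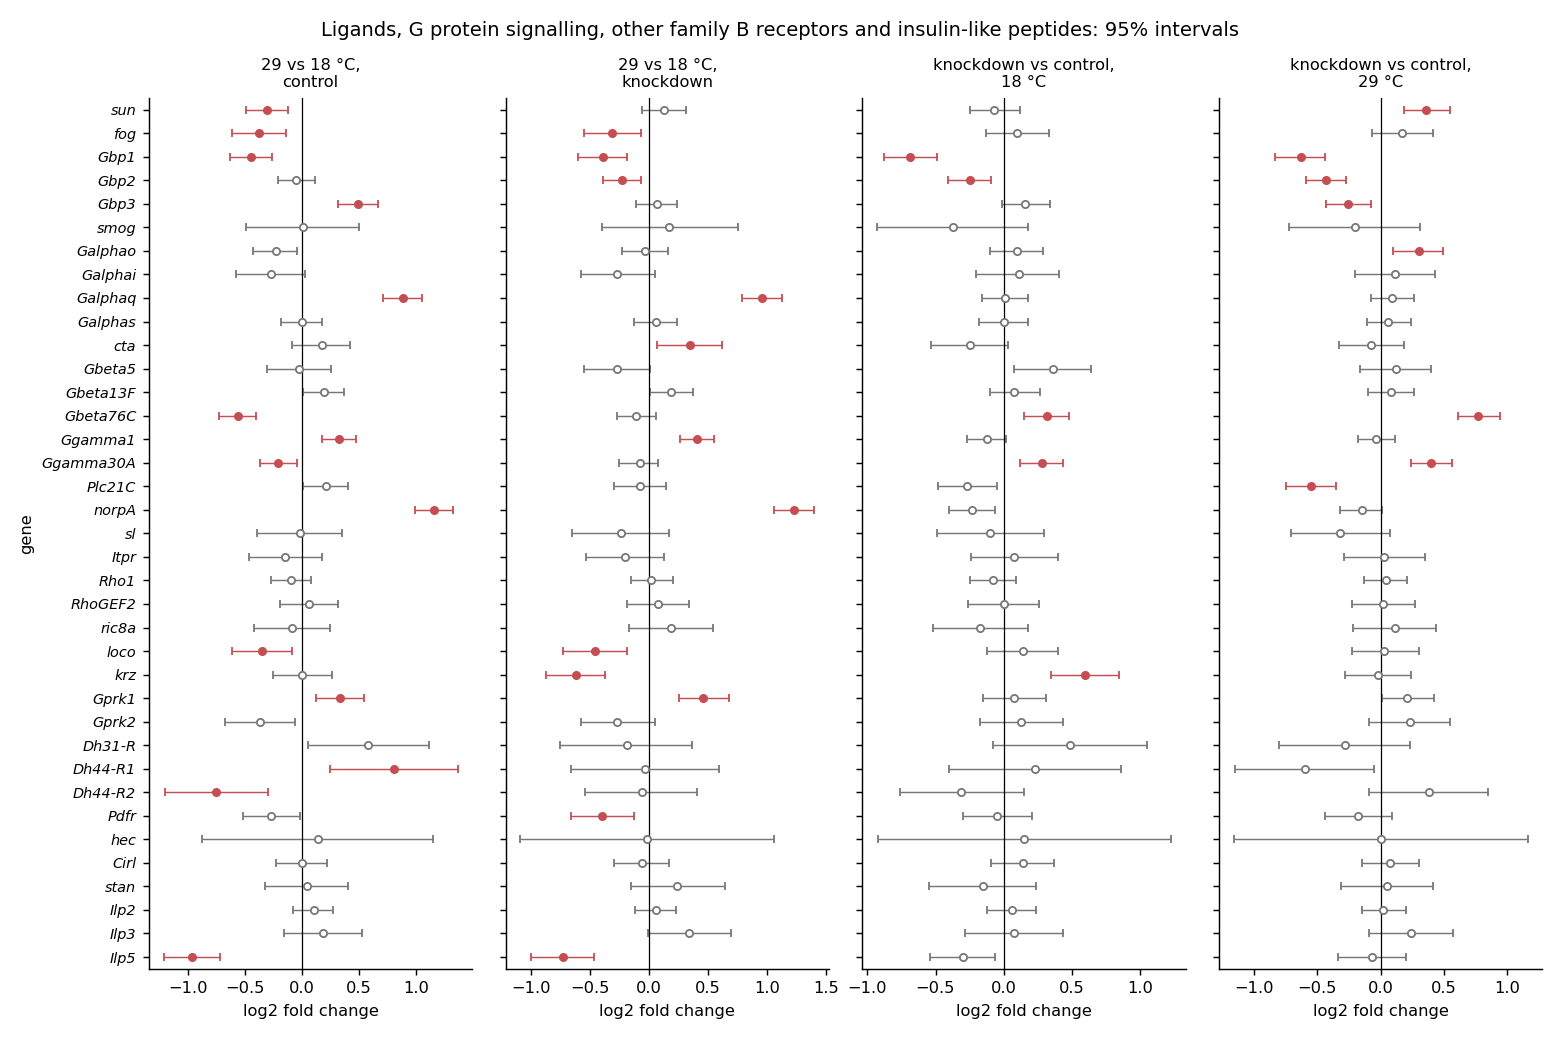
Log2 fold changes of the tested ligand, G protein, family B receptor and insulin-like peptide genes in 4 panels, 1 per single contrast, each with its own horizontal scale; red points passed the threshold. Gbp1 (Gbp) lies below 0 in all 4 panels, from -0.39 to -0.69, and norpA and Galphaq are the highest in the 2 temperature panels.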

How the data were processed

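RNA was measured by sequencing of 3' ends in 12 libraries, with STAR, TopHat2 and the genome build dm3 named per the submitters' processing notes. Neither the versions nor the counting tool, gene annotation or strand rule are stated in the sources used here. The authors deposited read counts as whole numbers for each gene, without normalization. The peak lists of a histone mark were not used here, and dm3 sequence was not used.

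The filter filterByExpr (minimum count 10, minimum total 15) left 9056 genes, which were scaled by TMM and fitted with edgeR 4.0.16 in R 4.3.3 as 1 quasi-likelihood model of 4 groups over all 12 libraries. Benjamini-Hochberg adjustment ran over all genes tested, with a threshold of 0.05; the SE of a log2 fold change came from its F statistic, and its 95% interval from the model's degrees of freedom. The 20 alternatives include DESeq2 1.42.0, other scalings, no filter, a replicate block and leaving out each library. Poisson intervals cover counting error only, since reads are not known to be independent molecules. Of 16719 symbols, 12673 matched RefSeq names directly, 3965 by synonym and 81 not.

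The members and all gene lists were chosen with earlier results of these data known. All members, BEAF-32 and called list genes may be named, with the 2 genes most correlated with a member over the 12 libraries.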

Additional observations from a re-analysis of the deposited data

Results flagged for a closer look

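Gbp3 (CG17244), a peptide bound by mthl10, had every knockdown library above every control library at 18 °C, with means of 138 against 123 CPM, and every knockdown library below at 29 °C, with means of 144 against 173 CPM. The difference between these effects was -0.42 on the log2 scale (SE 0.119) and did not pass the test of the interaction (edgeR adjusted p = 0.0681). With DESeq2 it did pass (DESeq2 adjusted p = 0.0365).

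For Gbeta76C, the G protein beta subunit of photoreceptors, the temperature effect in knockdown flies minus that in controls was 0.46 (SE 0.112, edgeR adjusted p = 0.0338), past the threshold of the interaction test. It held in 7 of 19 alternatives, with adjusted p-values from 0.00394 to 0.366, and every knockdown library lay above every control library at both temperatures.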

How the results depend on the processing

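No called fold change of a member or a listed gene reversed under any of the 20 alternatives; uncalled values switched sign in 47 of 1096 member values and 180 of 5206 values of listed genes. Of the member values, 1063 stayed on the same side of the threshold, 21 lost a call and 12 gained one; of those of listed genes, 4967 stayed, 187 lost a call and 52 gained one. Leaving out 1 library at a time moved the members called from 2 to between 1 and 3 for warmth in controls, from 2 to between 1 and 3 for the knockdown at 29 °C, and from 3 to between 1 and 3 for temperature over both genotypes. It moved the genes called from 1332 to between 873 and 1395 for the knockdown at 29 °C and from 209 to between 122 and 250 for the interaction. Without a filter on low counts the interaction called 423 genes. Without the 2 libraries low in roX1, an alternative chosen after seeing the data, 1 member was called in the knockdown at 29 °C. Without the 3 libraries high in Obp83a, also chosen after seeing the data and leaving 1 cool knockdown library that is assumed to vary like the others, 1 member was called in the knockdown at 29 °C and 1 over both temperatures; genes called were 1854 instead of 3216 for warmth in knockdown flies, 559 instead of 1279 for the knockdown at 18 °C, 80 instead of 209 for the interaction and 1327 instead of 2104 for the knockdown over both temperatures. Fewer libraries enter these fits; beyond that the cause was not tested. Same-numbered libraries did not deviate together (18 pairs, correlations from -0.11 to 0.03), so the numbers name libraries only; with the replicate block, 1178 genes were called for the knockdown at 18 °C and 173 for the interaction, and the call of mth for temperature over both genotypes was lost, at 0.39 (edgeR adjusted p = 0.0606). Depth limits mthl3, mthl4, mthl9 and mthl15, whose libraries held 0 to 24 reads.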
